A study of Mus musculus with 24 samples.

Results

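Mouse small-cell lung cancer (SCLC) lines were compared by RNA-seq before p53 was returned to them. SCLC is a neuroendocrine carcinoma that nearly always lacks RB1 and p53 function, and variant forms lose the neuroendocrine programme. The study sorts its lines by their fate after p53 restoration. Type D, whose viability drops, comprises lines 4711-1, 4711-18 and 4716-11, and Type V, which survives, comprises 4711-11, 4716-10 and 4716-14. The comparison uses the Control libraries, 1 for each line and 6 of the 24 in the series, and asks how the lines of the 2 types differ before any p53 is expressed. All 6 lines share the same engineered alleles: floxed Rb1 and Rbl2 (p130), both deleted by Cre, a Trp53 XTR allele locked in its trapped, inactive TR form, and a Rosa26 FlpO-ER recombinase. Cre came from an adenovirus given into the airway, under a CMV promoter that is not restricted to 1 cell type, in mice of mixed B6J and 129S4vJae background. Control cells received vehicle for 72 h, so FlpO-ER stayed idle. Each line was grown from a primary lung tumour. A type is therefore 3 cultures, and a p-value measures the spread between such cultures, not between mice. The labels do not say which animal gave which line or what the first number of a line name (4711 or 4716) stands for.

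Values are TPM, a transcript abundance. They are scaled for gene length and to the same sum in every library, so sequencing depth is unknown. Differences are Type D minus Type V on the log2(TPM + 1) scale, with their SE, and they understate the change of genes with low levels. A gene was tested when at least 3 of the 6 libraries reached 1 TPM, which 12298 of 25239 genes did. It was called when the limma test gave a Benjamini-Hochberg adjusted p under 0.05 and the difference was at least 1 log2. Wherever 3 values are given for a type they follow the order 4711-1, 4711-18, 4716-11 for Type D and 4711-11, 4716-10, 4716-14 for Type V. Each library held 11880 to 12369 genes at 1 TPM or more. No columns were identical. Pearson's r over tested genes was 0.931 to 0.971 between Type D lines, 0.893 to 0.928 between Type V lines and 0.798 to 0.870 across types. In bulk RNA, fewer cells of a kind and less RNA per cell cannot be told apart.

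Trp53 was low in both types. It measured 10.9, 13.9 and 10.7 TPM in the Type D lines and 13.6, 14.8 and 14.1 TPM in the Type V lines (-0.24 ± 0.21 log2, adjusted p = 0.519). After restoration the same 6 lines gave 182 to 253 TPM. Rb1 remained detectable at 7.75, 13.4 and 10.1 TPM and 11.7, 11.5 and 17.3 TPM (-0.35 ± 0.29 log2, adjusted p = 0.486), and a gene-level value does not show which exons are left. Rbl2 lay at 4.49, 8.23 and 6.49 TPM in Type D, below each Type V line at 11.7, 9.91 and 14.6 TPM, without passing the test (adjusted p = 0.13).

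The lines of the 2 types also differed in their sex chromosome transcripts, and this stands beside every result that follows. The 4 Y-linked genes tested were read in all 3 Type D lines and listed at 0 in all 3 Type V lines. Eif2s3y, a translation initiation factor subunit, measured 11, 25.8 and 10.3 TPM in Type D, and Ddx3y, an RNA helicase, 7.26, 10.1 and 4.01 TPM. Kdm5d and Uty, both histone demethylases of the Y chromosome, were read in the same lines. Xist, the RNA that silences an X chromosome, was above 0.1 TPM in a single line, Type V 4716-14, at 97.9 TPM. Of 392 X-linked genes tested, 8 were called higher in Type D (2.04%) and 35 lower (8.93%), with a median difference of -0.52 log2, whereas autosomal genes had 3.52% called higher, 3.56% lower and a median of -0.11 log2. The presence of Y transcripts and the type of a line coincide in these 6 libraries and cannot be told apart.

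Before restoration the types differed in many genes. Across all tested genes 888 were called (7.22%), of which 431 were higher in Type D (3.5%) and 457 lower (3.72%). In all 888 the 3 values of a type lay entirely above those of the other, which was so for 31.9% of all tested genes. Differences of at least 3 log2 were seen in 139 genes called higher and 140 called lower. A gene absent from 1 type enters the test through the other: all 3 Type V lines were below 1 TPM for 88 of the 431, and all 3 Type D lines for 169 of the 457. The median over all tested genes was -0.12 log2, and it was near 0 after median-ratio scaling, so small differences are best read against that shift. The counts depended on single lines. Without 4711-1 there were 146 higher and 144 lower, without 4716-11 162 and 190, without 4716-14 195 and 209, and without 4711-11 268 and 324. Of the 152 called genes named by rule, 72 lost their call without 4711-1, 66 without 4716-11, 54 without 4716-14 and 20 to 42 without each of the others.

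The largest differences separated an epithelial, gut-like profile in Type D from a matrix-rich profile in Type V. Lgals2, a galectin of the gastrointestinal epithelium, stood at 1816, 1051 and 1048 TPM in the Type D lines and 2.7, 45.9 and 4.21 TPM in the Type V lines, a difference of 7.03 ± 0.90 log2 (adjusted p = 0.00845). Clca3b, of a family of secreted chloride-channel regulators, gave 230.0, 387 and 387 TPM against 1.21, 13.5 and 1.16 TPM (6.31 ± 0.73 log2). Fermt1 encodes kindlin-1, which activates integrins in epithelium, and was nearly constant in Type D at 108, 109.8 and 115 TPM, with 0, 1.22 and 0.315 TPM in Type V (6.29 ± 0.32 log2, adjusted p = 0.000354). For all 3 genes the lowest Type D line was far above the highest Type V line, which was 4716-10. S100a14, an epithelial calcium-binding protein, differed by 6.16 ± 0.60 log2, Gcnt3, which branches mucin glycans, by 5.94 ± 0.38 log2, and Cmbl, a hydrolase, by 5.92 ± 0.45 log2. Myrf, a membrane-bound transcription factor best known from myelination, was at 184, 137 and 181 TPM in Type D and at 0.285, 9.17 and 0.296 TPM in Type V.

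In the other direction, Ifitm3, an interferon-induced membrane protein that blocks virus entry, was close to absent from Type D at 0.338, 0.593 and 2.21 TPM and abundant in Type V at 859.9, 1291 and 591 TPM (-8.84 ± 0.41 log2, adjusted p = 0.000354). Mgp, matrix Gla protein, was read at 0, 0.312 and 0 TPM and 292, 210.5 and 253 TPM (-7.84 ± 0.23 log2), the lowest adjusted p of the named genes at 6.86e-05. Irx1 and Irx2, neighbouring homeobox genes that pattern the lung and other organs, moved together: Irx1 was at 0.053, 0 and 0 TPM and 65.7, 67.1 and 117 TPM, and Irx2 at 0, 0.0731 and 0 TPM and 102, 50.6 and 70.2 TPM. Type D held next to none of either. Aebp1, a secreted protein of connective tissue, spanned 10.6, 362 and 636 TPM in Type V, and its call ended without the low-value filter and when any line but 4711-11 was left out. Ces1g, a liver-type carboxylesterase, was listed at 0 in all Type D lines and measured 10.6, 219 and 92.2 TPM in Type V. Ces1g and Clca3b belong to families of near-identical copies, between which reads may have been split.

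**Figure D1:**
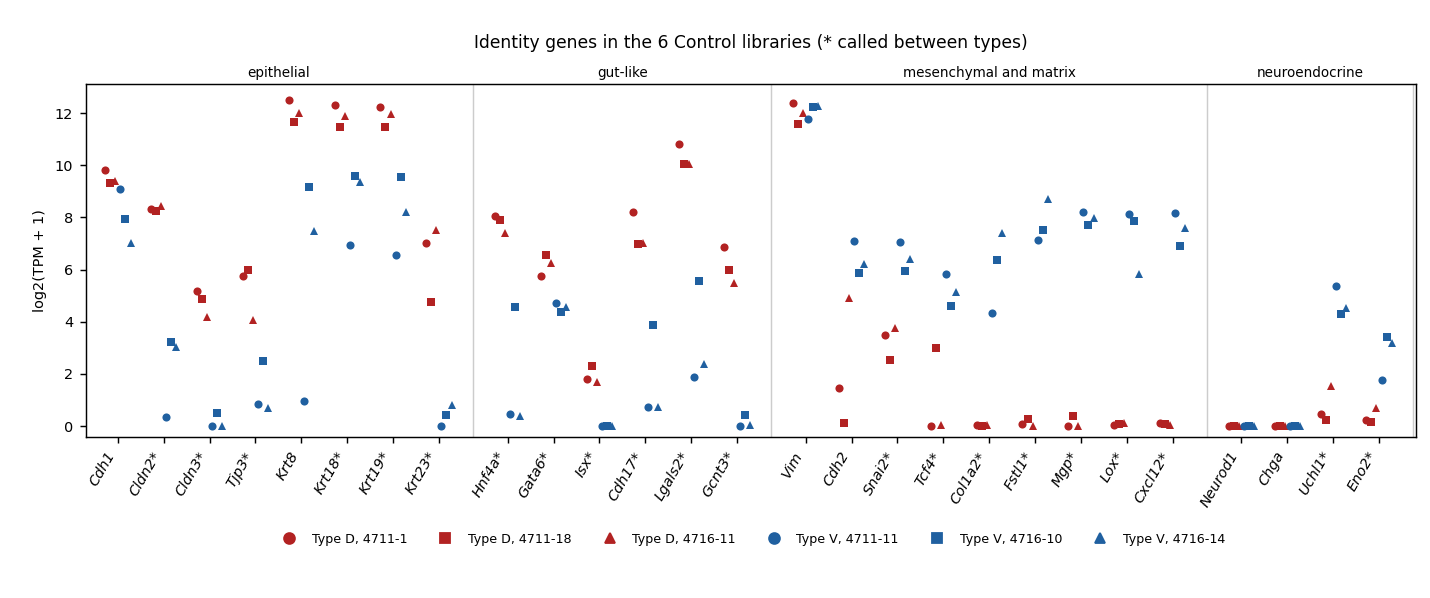
Level of identity genes in each Control library, as log2(TPM + 1), with Type D lines in red and Type V lines in blue and 1 point per line. Starred genes were called between the types. Cldn2, Krt23, Lgals2 and Gcnt3 were high in the 3 red lines, Mgp, Fstl1, Lox and Cxcl12 in the 3 blue lines, Vim was high in all 6, and Neurod1 and Chga lay at 0 throughout.

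The SCLC label was checked against neuroendocrine genes, and these were mostly silent in both types. Of 26 such genes 4 passed the filter. Neurod1, a neuronal factor, was listed at 0 in all 6. Chga and Calca were below 0.5 TPM everywhere, and so was Pou2f3, the tuft-cell factor of a further SCLC subtype. Uchl1, a neuronal deubiquitinase, was the exception in Type V, at 40.9, 18.9 and 22.2 TPM against 0.383, 0.168 and 1.88 TPM in Type D (-4.01 ± 0.45 log2, adjusted p = 0.00559), and Eno2, the neuronal enolase, followed it (-2.43 ± 0.49 log2). Ncam1, a neural adhesion molecule, was read in all 6 lines at 10.1, 8.46 and 14.8 TPM and 18.7, 11.6 and 21.1 TPM, and Insm1 at 1.62, 0 and 3.07 TPM and 18.1, 1.59 and 5.3 TPM, neither called. Of 10 SCLC subtype factors 6 passed, and limma called none (1 at an unadjusted p under 0.05). Yap1, which marks SCLC without neuroendocrine genes, was present in every line at 105, 111 and 103 TPM and 166, 571 and 126 TPM and not called (adjusted p = 0.241).

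The Myc family did not separate the types by the test. Myc was at 259, 147 and 362 TPM in Type D and 228, 162 and 164 TPM in Type V. Mycl, the member amplified in classic SCLC, was higher in each Type D line, at 13.2, 3.67 and 14.8 TPM against 0.254, 1.13 and 2.79 TPM, and missed the threshold (2.23 ± 0.60 log2, adjusted p = 0.0701). Mycn varied within both types, at 0.379, 19.2 and 1.1 TPM and 0, 14.4 and 4.01 TPM.

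Markers of other cell types were sparse. Of 26 leukocyte genes 2 passed and none was called by limma (1 at an unadjusted p under 0.05), with a summed level of 12.5 to 13.3 TPM in Type D and 16.4 to 36.4 TPM in Type V, and Ptprc, Cd3e, Itgam and Tyrobp were below 0.5 TPM in every line. Of 13 endothelial genes 3 passed, none called and 1 at an unadjusted p under 0.05, and Pecam1, Cdh5 and Kdr were below 0.5 TPM in every line. Fibroblast markers were different. The summed level of the 13 listed was 1.3 to 2.7 TPM in Type D and 331 to 505 TPM in Type V. Of the 13, 6 passed and 5 were called lower in Type D (83.3%, against 7.22% of all tested genes). Only 1, 0 and 2 of the 13 reached 1 TPM in the Type D lines, so the 6 passed the filter through their Type V levels. Thy1, Fap, Pi16 and Tcf21 were below 0.5 TPM in every line, and Pdgfra was at 0.0179, 0.02 and 3.37 TPM in Type V. The part of fibroblasts in the matrix results below was not tested.

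**Figure D2:**
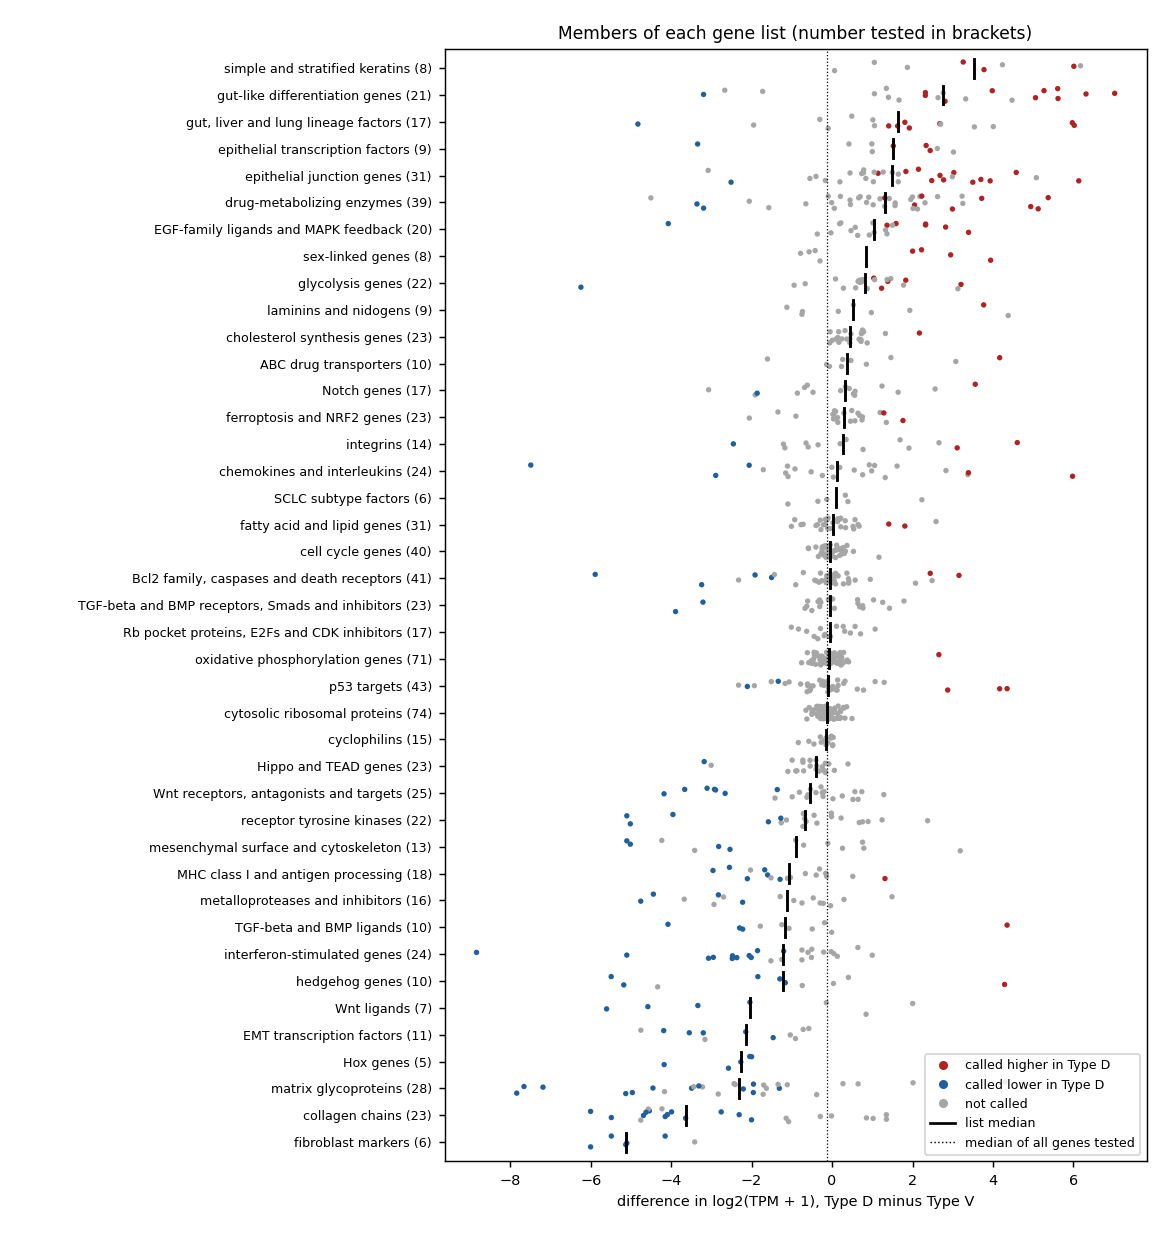
Difference between types for every tested member of each gene list with at least 5 tested members, in log2(TPM + 1), Type D minus Type V. Red and blue points were called higher and lower in Type D, grey points were not called, short bars are list medians and the dotted line is the median of all tested genes. Keratin, gut-like and junction lists lay to the right, collagen, matrix and EMT lists to the left, and cell cycle, cyclophilin and ribosomal lists close to the dotted line.

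Epithelial cells are held together by tight junctions, built from claudins, occludin and the ZO scaffolds, and by desmosomes, anchored to keratins. Of 38 junction genes 31 passed, and 12 were called higher in Type D and 1 lower, with a median of 1.5 log2. Cldn2, a claudin that forms cation pores, was at 315, 302 and 350.5 TPM in Type D and 0.259, 8.34 and 7.28 TPM in Type V (6.13 ± 0.73 log2, adjusted p = 0.00645). Cldn3, a sealing claudin, was at 35.2, 28.4 and 17.2 TPM against 0, 0.422 and 0 TPM (4.58 ± 0.35 log2, adjusted p = 0.00181). Tjp3, the ZO-3 scaffold, was at 53.5, 62.6 and 15.7 TPM against 0.814, 4.65 and 0.597 TPM (3.93 ± 0.67 log2). Each of them was several log2 higher in Type D, and Type V line 4716-10 was the highest of its type for all 3. Dsp, desmoplakin of the desmosome, differed by 3.70 ± 0.70 log2 and Lsr, which builds tricellular junctions, by 3.50 ± 0.72 log2, though both calls ended with the line name prefix as a term or without the filter. Ocln, occludin, was at 5.7, 22.6 and 3.26 TPM in Type D and 0, 0.149 and 0.0832 TPM in Type V. The 1 called lower was Cldn1, at 0.202, 0 and 0.276 TPM in Type D and 4.96, 5.76 and 6.07 TPM in Type V (-2.51 ± 0.28 log2, adjusted p = 0.00543), named after its value was seen. Of the 31 tested differences 26 were positive and 5 negative, down to -3.08 log2. All Type D lines lay above all Type V lines for 20 genes and below them for 4.

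Cdh1, E-cadherin, did not pass the test although its groups did not overlap. It was abundant in both types, at 903, 641 and 676 TPM in Type D and 538, 246 and 130.4 TPM in Type V (1.5 ± 0.48 log2, adjusted p = 0.107). Epcam, often used to sort epithelial cells, was low in all 6 lines, at 1.22, 4.57 and 0.435 TPM and 0.698, 1.64 and 0.564 TPM.

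The proximal promoters of the 3 junction genes named above are shown because Snai and Zeb repressors, which act in epithelial-mesenchymal transition (EMT) and are described below, bind E-boxes. Capitals mark the 6-base E-box CAGGTG or its reverse complement CACCTG, searched on both strands. Sequences are from RefSeq on GRCm38.p6, run 5′ to 3′ on the gene's strand, and span 250 bases before to 50 after an annotated start. 23 of the 38 junction genes had an entry, and Cdh1 had none. The same E-box is held by 20.2% of 32851 promoter windows of this length. A match describes letters and is not a measured site.
Cldn2, chrX:139800558-139800857, plus strand: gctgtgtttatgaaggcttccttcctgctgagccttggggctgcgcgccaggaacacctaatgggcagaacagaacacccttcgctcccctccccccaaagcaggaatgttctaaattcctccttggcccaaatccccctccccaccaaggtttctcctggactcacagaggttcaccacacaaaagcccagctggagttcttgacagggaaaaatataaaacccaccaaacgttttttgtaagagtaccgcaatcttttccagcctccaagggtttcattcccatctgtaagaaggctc
Cldn3, chr5:134985964-134986263, plus strand: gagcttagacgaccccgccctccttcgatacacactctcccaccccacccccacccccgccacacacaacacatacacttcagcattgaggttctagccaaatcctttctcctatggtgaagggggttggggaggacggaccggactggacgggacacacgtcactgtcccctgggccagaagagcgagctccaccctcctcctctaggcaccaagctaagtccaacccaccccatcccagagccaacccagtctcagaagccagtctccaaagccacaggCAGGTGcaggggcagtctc
Tjp3, chr10:81291532-81291831, minus strand: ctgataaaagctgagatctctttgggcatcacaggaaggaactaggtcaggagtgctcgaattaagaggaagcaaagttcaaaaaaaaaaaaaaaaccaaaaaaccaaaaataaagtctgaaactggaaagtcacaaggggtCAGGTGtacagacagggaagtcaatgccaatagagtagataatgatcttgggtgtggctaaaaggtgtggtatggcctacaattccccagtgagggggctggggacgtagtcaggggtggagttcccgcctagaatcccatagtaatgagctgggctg
Tjp3, second annotated start, chr10:81291218-81291517, minus strand: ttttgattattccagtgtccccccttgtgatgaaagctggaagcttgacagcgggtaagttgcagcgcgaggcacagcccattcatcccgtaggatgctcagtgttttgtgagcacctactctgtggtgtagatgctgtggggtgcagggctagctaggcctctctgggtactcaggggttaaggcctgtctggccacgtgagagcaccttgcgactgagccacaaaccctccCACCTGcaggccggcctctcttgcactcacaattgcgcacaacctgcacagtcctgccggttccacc
Cldn3 held 1 match, which began 32 bases after the start, and each Tjp3 window held 1, which began 108 and 17 bases before its start. The Cldn2 window held none.

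Keratins are the filaments of epithelial cells, and the simple keratins 8, 18 and 19 line glands and gut. Of 12 keratins 8 passed, 3 were called higher in Type D and none lower, and their median was 3.52 log2. Krt18 was at 5115, 2797 and 3815 TPM in Type D and 122.9, 762 and 656 TPM in Type V (3.26 ± 0.68 log2, adjusted p = 0.035). Krt19 was at 4802, 2827 and 4000.0 TPM and 93.7, 748 and 297 TPM (3.78 ± 0.69 log2), and Krt23 at 128, 25.8 and 181 TPM and 0, 0.345 and 0.75 TPM (6.01 ± 0.70 log2). All 3 Type V lines retained Krt18 and Krt19, with the lowest levels in 4711-11. Krt8, the partner of keratin 18, was below 1 TPM in that line. It was at 5797, 3252 and 4055 TPM in Type D and 0.974, 567 and 179 TPM in Type V, and it was not called (adjusted p = 0.0982).

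Transcription factors of epithelium and gut accompanied the structural genes. Of 15 epithelial factors 9 passed, 3 were called higher and 1 lower. Klf4 was at 308, 179 and 115 TPM and 25.6, 48.7 and 29.7 TPM (2.44 ± 0.39 log2), Klf5, which maintains gut epithelium, differed by 1.52 ± 0.14 log2, and Foxq1 by 2.34 ± 0.24 log2. Trp63, the p63 factor of basal cells, was the one that was lower in Type D, at 0.106, 0.124 and 0.0579 TPM against 25.3, 9.68 and 3.89 TPM. Of 25 gut, liver and lung lineage factors 17 passed, 7 were called higher and 1 lower, with a median of 1.63 log2. Hnf4a, a nuclear receptor of liver and gut, was at 263, 235 and 167 TPM in Type D and 0.367, 22.7 and 0.312 TPM in Type V (5.97 ± 1.07 log2, adjusted p = 0.0225), and its call ended without the low-value filter and when any line but 4716-10 was left out. Line 4716-10 stood between the types here. Gata6, an endoderm factor, was at 52.6, 93.2 and 74.8 TPM and 25.2, 19.8 and 22.7 TPM (1.63 ± 0.24 log2), and Hhex, a homeobox factor of foregut and liver, at 51.6, 38.9 and 39.2 TPM and 8.19, 4.62 and 5.24 TPM (2.68 ± 0.26 log2). Isx, an intestinal homeobox factor, was listed at 0 in all Type V lines and at 2.46, 3.9 and 2.2 TPM in Type D. Sox2, a factor of proximal airway and foregut, went the other way, at 3.45, 0.0776 and 0 TPM in Type D and 59.2, 23.3 and 73.8 TPM in Type V (-4.83 ± 0.68 log2, adjusted p = 0.0112). Neither Foxa2, at 72.1, 96.6 and 73.1 TPM and 105, 43.2 and 12.7 TPM, nor Nkx2-1, the lung factor, at 0.116, 80.4 and 12.1 TPM and 4.66, 4.08 and 3.62 TPM, was called.

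Genes of differentiated gut epithelium showed the same ordering. Of 30 in the list 21 passed, 10 were called higher in Type D and 1 lower, and the median was 2.76 log2. Cdh17, the liver-intestine cadherin, was at 292, 125 and 129.9 TPM in Type D and 0.646, 13.8 and 0.671 TPM in Type V (5.62 ± 0.87 log2). Tmigd1, an adhesion protein of the intestinal brush border, differed by 5.61 ± 0.72 log2, Vsig1, a junction protein of stomach, by 5.27 ± 0.77 log2, and Ctse, the gastric protease cathepsin E, by 5.06 ± 0.83 log2. Of 16 lung epithelial markers 4 passed, and the single call was Trp63. Dclk1, a kinase used to mark tuft cells, was lower in Type D at 0.0162, 0 and 0.146 TPM than in Type V at 24.6, 40.5 and 93.6 TPM (-5.46 ± 0.48 log2), while Trpm5, Chat and Il25 of the same list were below 0.5 TPM everywhere.

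EMT factors repress junction genes and switch on a migratory, matrix-producing state. Of 12 such factors 11 passed, and 5 were called lower in Type D and none higher, with a median of -2.15 log2. Snai2 was at 10.4, 4.81 and 12.7 TPM in Type D and 133, 61 and 83.6 TPM in Type V (-3.20 ± 0.41 log2, adjusted p = 0.00834). Foxc1 was at 1.09, 0.912 and 1.34 TPM and 22, 20.3 and 29.7 TPM (-3.55 ± 0.26 log2, adjusted p = 0.00181), and Mecom, a zinc-finger factor also known as Evi1, at 8.18, 8.83 and 9.27 TPM and 36.1, 39.1 and 53 TPM (-2.15 ± 0.22 log2). All 3 were read in both types and were several times higher in Type V. Tcf4, at 0.0135, 7 and 0.0221 TPM and 56.1, 23.6 and 34.6 TPM, lost its call with a pseudocount of 0.1. Zeb1 was at 14.5, 11 and 28.5 TPM and 32, 32.4 and 41.9 TPM (adjusted p = 0.122), Zeb2 differed by -0.72 ± 0.29 log2 (adjusted p = 0.179) and Snai1 by -0.91 ± 0.85 log2 (adjusted p = 0.548), none of them called.

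Vim, the filament protein by which mesenchymal cells are usually recognised, was among the abundant genes of both types, at 5360.0, 3031 and 4073 TPM in Type D and 3503, 4789 and 4907 TPM in Type V (-0.10 ± 0.26 log2, adjusted p = 0.836, with the sign turned by median-ratio scaling). The Type D lines therefore carried high Vim together with high simple keratins. Cdh2, N-cadherin, was at 1.72, 0.0793 and 29.1 TPM in Type D and 136, 57.5 and 72.4 TPM in Type V, and was not called (-4.23 ± 1.13 log2, adjusted p = 0.0689). Cdh2 differed by -6.32 log2 between the 4711 lines and by -1.12 log2 between the 4716 lines. Without 4716-11, picked because it was the highest Type D line, the limma fit gave -5.61 log2. Of 20 mesenchymal surface and cytoskeletal genes 13 passed and 4 were called, all lower in Type D: Pdgfrb (-5.10 ± 0.95 log2), Fgfr1 (-5.02 ± 0.44 log2), Nrp1 (-2.82 ± 0.28 log2) and Nrp2 (-2.54 ± 0.33 log2). Fgfr1, a growth factor receptor, was at 0.3, 0.226 and 0.0701 TPM and 19, 44.1 and 63.1 TPM.

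Extracellular matrix genes were called in 1 direction. Of 44 collagen chains 23 passed, 12 were called lower in Type D and none higher, with a median of -3.64 log2. Of 33 matrix glycoproteins and modifiers 28 passed, 12 were called lower and none higher, with a median of -2.31 log2. Col1a2, a chain of fibrillar collagen I, was at 0.0211, 0 and 0.0345 TPM in Type D and 19, 80.7 and 170.2 TPM in Type V (-6.00 ± 0.72 log2, adjusted p = 0.00692). Col5a1 was at 4.67, 0.712 and 10.3 TPM and 125, 145 and 101 TPM (-4.69 ± 0.63 log2). Type V lines differed among themselves in collagen I: Col1a1 reached 103, 349 and 11.8 TPM, highest in 4716-10, whereas Col1a2 was highest in 4716-14. Lox, which cross-links collagen, was at 0.0193, 0.0677 and 0.0946 TPM and 280.4, 229.6 and 55.8 TPM (-7.19 ± 0.58 log2, adjusted p = 0.00216). Fstl1, a secreted glycoprotein, was at 0.0606, 0.213 and 0 TPM and 139, 182 and 415 TPM (-7.66 ± 0.41 log2). Thbs1, thrombospondin-1, was read in both types, at 15.6, 42.7 and 35.2 TPM and 842, 594 and 1590.0 TPM (-4.96 ± 0.47 log2). Dcn, decorin, and Fbln5, fibulin-5, differed by -5.13 ± 0.38 and -4.45 ± 0.41 log2. The 6 named glycoproteins kept their calls in all 17 alternatives.

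Of 24 metalloproteases and their inhibitors 16 passed and 4 were called lower in Type D. Mmp14, the membrane-bound collagenase, was at 4.95, 6.46 and 20.7 TPM and 214, 232 and 197 TPM (-4.44 ± 0.46 log2, adjusted p = 0.00432), and Timp1, an inhibitor of these enzymes, at 45.8, 38.8 and 52.7 TPM and 181, 452 and 432 TPM (-2.83 ± 0.36 log2). Of 20 integrins, the receptors for matrix, 14 passed, with a median of 0.27 log2 and with Itga2 (at 81.8, 95.3 and 158 TPM against 0.247, 5.29 and 10.2 TPM) and Itgb4 (3.11 ± 0.71 log2) called higher and Itgb8 lower (-2.45 ± 0.53 log2). The calls of the 3 integrins each ended in at least 1 alternative.

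TGF-beta ligands signal through receptor kinases and Smads and can drive EMT. Of 17 TGF-beta and BMP ligands 10 passed, 3 were called lower in Type D and 1 higher. Tgfb2 was at 0.336, 4.64 and 0.893 TPM in Type D and 49, 46.4 and 28.2 TPM in Type V (-4.08 ± 0.55 log2, adjusted p = 0.00979). Tgfb3 was at 4.49, 7.82 and 10.6 TPM and 42.9, 45.4 and 26.9 TPM (-2.22 ± 0.35 log2), and Inha, the inhibin alpha chain, differed by -2.30 ± 0.32 log2. Gdf15, a stress-induced ligand of the family and a p53 target, had the opposite direction at 49.5, 218 and 87 TPM and 1.63, 6.14 and 5.09 TPM (4.35 ± 0.60 log2, adjusted p = 0.0102). Among 28 receptors, Smads and inhibitors 23 passed, and Tgfbr3, the co-receptor betaglycan (-3.89 ± 0.60 log2), and Fst, the activin trap follistatin (-3.21 ± 0.57 log2), were called, both lower in Type D (8.7%, against 7.22% of all tested genes).

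In the main test, Wnt signalling genes were called in the Type V direction alone. Of 19 Wnt ligands 7 passed and 4 were called lower in Type D, and of 39 receptors, antagonists and targets 25 passed and 7 were called lower. Wnt10a was at 0.0557, 0.293 and 0 TPM in Type D and 11.3, 70.0 and 179.6 TPM in Type V (-5.61 ± 0.89 log2, adjusted p = 0.0161). Wnt5a, a non-canonical ligand, was low in both types, at 0.623, 0.0608 and 0.198 TPM and 6.31, 4.54 and 2.57 TPM (-2.04 ± 0.38 log2). Dact2, an intracellular modulator, was at 0.117, 0.546 and 0 TPM and 25.3, 15.4 and 22.8 TPM (-4.18 ± 0.32 log2, adjusted p = 0.00181). The frizzled receptor Fzd8 differed by -3.11 ± 0.38 log2, the secreted Wnt deacylase Notum by -2.92 ± 0.39 log2 and the R-spondin receptor Lgr5 by -2.90 ± 0.68 log2. The 4 called ligands were below 1 TPM in every Type D line and so passed the filter through their Type V levels. Their calls each ended in at least 1 alternative, and those of Dact2, Fzd8 and Notum in none. With the line name prefix as a term, 1 ligand was called higher and 2 lower, and 1 receptor, antagonist or target higher and 4 lower.

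Of 17 hedgehog genes 10 passed, 1 was called higher in Type D and 5 lower. Hedgehog ligands relieve the inhibition of Smo, which then acts through Gli factors at the cilium, where Evc and Evc2 assist it. Dhh, a ligand, was at 26.4, 13 and 23.4 TPM in Type D and 0, 0.0838 and 0.156 TPM in Type V (4.29 ± 0.33 log2, adjusted p = 0.00181). Evc2 was listed at 0 in all Type D lines and at 50.2, 53.2 and 31.9 TPM in Type V (adjusted p = 0.000354), and Evc, which lies beside it in the genome, at 0.0254, 0.0446 and 0 TPM and 35.1, 46.4 and 28.7 TPM (-5.18 ± 0.27 log2). Smo was read in both types, at 51.7, 91.4 and 86 TPM in Type D and 140.1, 174 and 191 TPM in Type V (-1.16 ± 0.25 log2). Gli3 was at 9.19, 4 and 12.8 TPM and 36.7, 25.6 and 31.6 TPM, and the co-receptor Cdon at 11, 9.76 and 14.6 TPM and 31.8, 41.3 and 20.5 TPM. These 3 were called lower in Type D, and the calls ended in 9, 6 and 13 of the 17 alternatives. Type D thus held Smo, Gli3 and Cdon at lower levels and next to no Evc or Evc2. Among 24 Notch genes 17 passed and 2 were called (11.8%, against 7.22% of all tested genes). Jag1, a ligand, was higher in Type D (3.56 ± 0.83 log2), and Lfng, a glycosyltransferase that tunes Notch, was lower (-1.86 ± 0.36 log2). Their calls ended in 9 and 6 of the 17 alternatives.

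Of 23 EGF-family ligands and feedback genes that MAPK signalling induces 20 passed, 6 were called higher and 1 lower, with a median of 1.03 log2. Areg, amphiregulin, was at 386, 172 and 391 TPM and 14.9, 55.9 and 24.1 TPM (3.39 ± 0.52 log2, adjusted p = 0.014). Btc, betacellulin, was at 57.4, 23.7 and 55.1 TPM and 3.32, 4.76 and 8.17 TPM (2.82 ± 0.43 log2), and Tgfa differed by 2.33 ± 0.47 log2. Dusp6, a phosphatase that limits ERK, was at 162, 157 and 190.3 TPM and 33.3, 52.6 and 20.2 TPM (2.32 ± 0.33 log2, adjusted p = 0.011). Nrg1, the ligand of ErbB3 and ErbB4, was the exception, at 1.2, 3 and 4.95 TPM in Type D and 76.2, 41.2 and 75.5 TPM in Type V (-4.07 ± 0.43 log2, adjusted p = 0.00445). Of 45 receptor tyrosine kinases 22 passed and 5 were called, all lower in Type D, among them Fgfr2 at 0.0592, 2.53 and 0.129 TPM and 41.2, 24.8 and 13.5 TPM and Tyro3 (-1.58 ± 0.22 log2). Of the 23 Hippo and TEAD genes, all tested, Vgll3 alone was called (4.35%, against 7.22% of all tested genes), at -3.18 ± 0.46 log2. It was listed at 0 in all Type D lines and so passed the filter through its Type V levels. Of the 23 differences 21 were negative, and 9 genes had every Type D line below each Type V line. The list median was -0.40 log2, against -0.12 log2 over all tested genes.

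**Figure D3:**
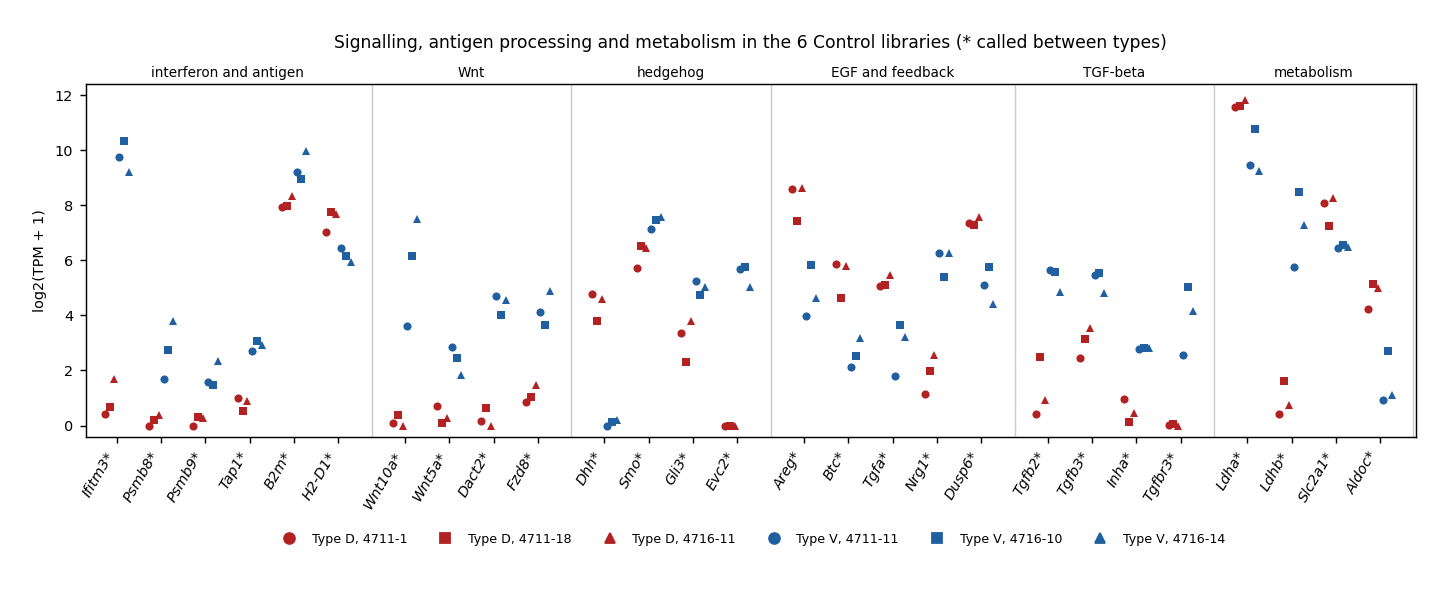
Level of genes of interferon response, antigen processing, signalling and metabolism in each Control library, as log2(TPM + 1), with 1 point per line, Type D in red and Type V in blue. Starred genes were called. Ifitm3, Evc2 and Ldhb lay near the floor in the red lines and high in the blue lines, and Dhh and Areg showed the reverse order.

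Of 36 interferon-stimulated genes 24 passed, and 11 were called lower in Type D and none higher, with a median of -1.23 log2. Beside Ifitm3, Ifitm1 was listed at 0 in all Type D lines and at 28.9, 71.7 and 17.7 TPM in Type V, and Cgas, the cytosolic DNA sensor, was at 1.02, 0.482 and 0.734 TPM and 11, 7.02 and 8.43 TPM (-2.48 ± 0.29 log2, adjusted p = 0.00649). Of 20 class I and antigen-processing genes 18 passed, 6 were called lower and 1 higher. Tap1 and Tap2 form the peptide transporter and were at 0.987, 0.449 and 0.837 and 2.07, 1.16 and 2.3 TPM in Type D. In Type V they were at 5.6, 7.38 and 6.65 and 21, 12.5 and 33.7 TPM, above each Type D line. Psmb8 and Psmb9, subunits of the immunoproteasome, differed by -2.55 ± 0.54 and -1.60 ± 0.36 log2. Each lost its call in 7 of the 16 alternatives in which it was tested, Psmb9 under quantile normalization among others. H2-D1, a class I heavy chain, was the exception, at 129.9, 218 and 205 TPM in Type D and 86.5, 70.2 and 60.5 TPM in Type V (1.31 ± 0.24 log2). Class I genes vary between mouse strains and resemble each other, and these lines are of mixed background, so reads may have been divided unequally among them.

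Of 32 chemokines and interleukins 24 passed, 2 were called higher in Type D and 3 lower, with a median of 0.11 log2. Cxcl12, a ligand of stromal cells, was at 0.0761, 0.0573 and 0.0178 TPM in Type D and 286, 120.0 and 193 TPM in Type V (-7.49 ± 0.33 log2, adjusted p = 0.000354). Ccl5 and Cxcl10, which attract T cells, were also lower in Type D, by -2.89 ± 0.30 and -2.06 ± 0.37 log2, and the call of Cxcl10 ended in 8 of the 17 alternatives. Cxcl3, which attracts neutrophils, was at 32.3, 184 and 456 TPM in Type D and 0, 5.78 and 0.652 TPM in Type V (5.98 ± 1.06 log2), a wide range within Type D.

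Of 44 p53 targets 43 passed, 3 were called higher in Type D and 2 lower (11.6% called, against 7.22% of all tested genes), and their median of -0.11 log2 was near that of all genes and turned to 0.0025 log2 under median-ratio scaling. Cdkn1a, the p21 inhibitor of the cell cycle, was at 108, 129 and 90.0 TPM in Type D, above each Type V line at 48.3, 37.5 and 72.1 TPM, and missed the threshold (1.07 ± 0.27 log2, adjusted p = 0.0571). Mdm2, the ubiquitin ligase of p53, was at 73.4, 71.4 and 71.6 TPM and 69.8, 63.2 and 61.9 TPM (0.15 ± 0.14 log2, adjusted p = 0.544). The 5 called targets were Gdf15, Abcb1a (4.17 ± 0.56 log2) and Crip2 (2.87 ± 0.59 log2), higher in Type D, and Tap1 and Ptpn14 (-1.34 ± 0.31 log2), lower. Abcb1a, the drug efflux pump P-glycoprotein, was at 39.3, 94.9 and 45.4 TPM and 0.432, 3.03 and 4.37 TPM.

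Proliferation genes did not separate the types by limma. None of 40 cell cycle genes, all tested, was called, 5 had an unadjusted p under 0.05, and Mki67 was at 126, 115 and 126 TPM and 179.8, 124 and 116 TPM (-0.16 ± 0.20 log2, adjusted p = 0.648). None of 17 tested Rb pocket proteins, E2Fs and CDK inhibitors was called, and 6 had an unadjusted p under 0.05. Cyclophilins, the targets of cyclosporin A, gave no limma call in 15 tested of 16, where 7.22% of all tested genes were called, with 2 at an unadjusted p under 0.05. Negative differences were seen in 12 of the 15, and 3 genes had every Type D line below each Type V line. Their median was -0.15 log2, against -0.12 log2 over all tested genes. Ppia, cyclophilin A, was at 864, 839.9 and 950.5 TPM and 898, 913 and 1149 TPM, Ppie was at 59.5, 58.7 and 63.9 TPM and 80.7, 67.9 and 71.9 TPM, and Ppif, the mitochondrial cyclophilin D that opens the permeability transition pore, at 15.1, 40.6 and 19.3 TPM and 20.3, 29.7 and 19.1 TPM. Their differences were -0.15 ± 0.16, -0.27 ± 0.15 and 0.016 ± 0.38 log2, with adjusted p of 0.596, 0.302 and 0.984.

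Cell death genes differed in a few members. Of 45 Bcl2 family members, caspases and death receptors 41 passed, 2 were called higher in Type D and 4 lower. These calls made up 14.6% of those tested, against 7.22% of all tested genes. The list median was -0.055 log2, and it turned to 0.067 log2 under median-ratio scaling and 0.022 log2 under quantile normalization. Casp12, an endoplasmic reticulum caspase, was at 0.0841, 0 and 0.412 TPM in Type D and 24.6, 223 and 54.5 TPM in Type V (-5.89 ± 0.73 log2, adjusted p = 0.00811). Casp4, an inflammatory caspase, differed by -3.24 ± 0.53 log2, with the call lost in the Control + CsA libraries. Bid, which links death receptors to mitochondria, was at 37.5, 62.8 and 42.1 TPM and 141, 100.4 and 166 TPM (-1.50 ± 0.27 log2). Higher in Type D were Tnfrsf21, death receptor 6, at 194, 211 and 198 TPM and 34.8, 28.1 and 48.4 TPM (2.44 ± 0.21 log2, adjusted p = 0.00315), and Gsdme, a gasdermin that caspase-3 cleaves to open pores in the plasma membrane, at 26.2, 64.8 and 36.6 TPM and 0.524, 10.2 and 4.59 TPM (3.15 ± 0.72 log2). The Gsdme call was marginal (adjusted p = 0.0454) and ended in 9 of the 17 alternatives.

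Casp4 and Casp12 lie in a run of neighbouring genes that was raised in 1 line, a pattern noticed in these values. From Alkbh8 to Arhgap42 on chromosome 9 there are 19 tested genes in a row, and 18 were highest in Type V line 4716-10, with Cep126 the exception. The median gene of the run was 2.35 log2 above the median of the other 5 lines. Yap1 and Birc2 are among them: Birc2, an inhibitor of apoptosis, was at 19.6, 21.4, 21.6, 36.7, 171 and 30.4 TPM across the 6 lines in order, and Mmp13, a collagenase, at 43.3, 8.69, 26.1, 2.15, 684 and 1.92 TPM. In the 15 tested genes that follow, 4716-10 lay at a median of -0.26 log2 from the others. Without 4716-10 the other Type V lines still gave Casp12 at 24.6 and 54.5 TPM and Casp4 at 6.76 and 8.29 TPM, above each Type D line. The state of the DNA in this line was not tested.

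**Figure D4:**
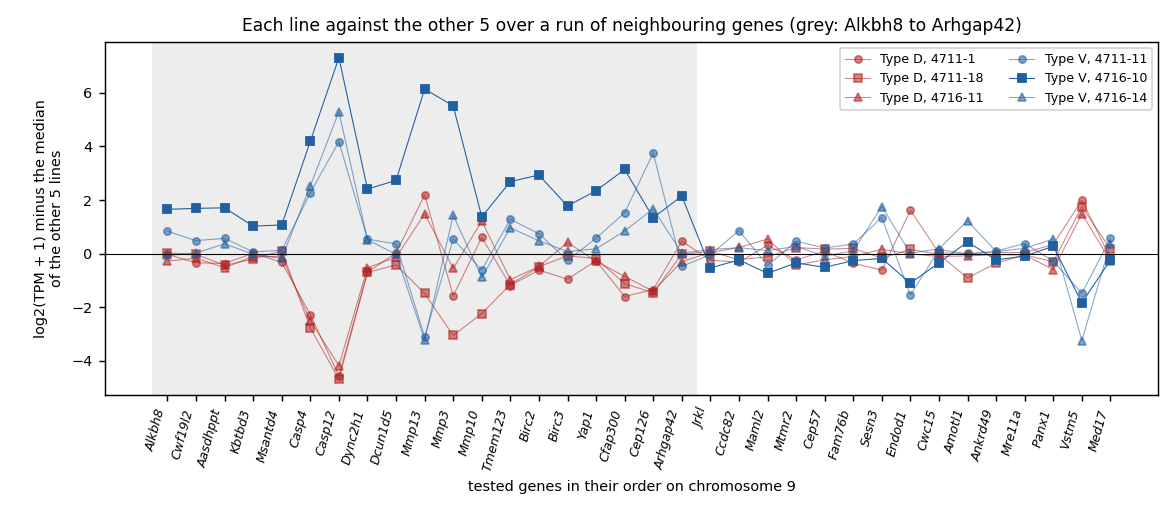
Deviation of each line from the median of the other 5, in log2(TPM + 1), for tested genes in their order on chromosome 9, with Type D in red and Type V in blue. The grey area holds the 19 genes from Alkbh8 to Arhgap42, where 4716-10 (dark blue squares) was highest for 18, and the 15 genes to the right are the next tested neighbours.

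Of 23 glycolysis genes 22 passed, 5 were called higher and 1 lower, with a median of 0.82 log2. Ldhb, the heart-type subunit, was at 0.337, 2.07 and 0.688 TPM in Type D and 52.9, 357 and 156 TPM in Type V (-6.24 ± 0.68 log2, adjusted p = 0.0051). Ldha, the subunit favoured in glycolytic cells, was at 3035, 3087 and 3632 TPM and 713, 1744 and 606 TPM (1.83 ± 0.39 log2, adjusted p = 0.0367). Both subunits were expressed in Type V and Ldha nearly alone in Type D. Slc2a1, the glucose transporter GLUT1, was at 269, 152 and 308 TPM and 85.4, 92.5 and 87.7 TPM (1.38 ± 0.27 log2), and Aldoc, an aldolase, differed by 3.21 ± 0.52 log2. The call of Ldhb held in all 17 alternatives, and the 5 others each ended in at least 1.

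Of 80 oxidative phosphorylation genes 71 passed, and Cox7a1, a subunit of cytochrome c oxidase, was the single call at 9.34, 21.7 and 16.3 TPM and 1.32, 1.47 and 1.82 TPM (2.65 ± 0.35 log2). Me1, the cytosolic malic enzyme and an NRF2 target, was at 319.5, 384 and 383 TPM and 92, 102 and 125 TPM (1.76 ± 0.17 log2), and Tkt, transketolase, differed by 1.29 ± 0.30 log2 with a call lost in 13 of 17 alternatives. All 23 ferroptosis and NRF2 genes were tested, and these 2 were called (8.7%, against 7.22% of all tested genes). Of 135 drug-metabolizing enzymes 39 passed, 8 were called higher in Type D and 2 lower. Cyp2c65, an intestinal cytochrome P450, was at 99.7, 89.6 and 12.6 TPM and 0, 0.735 and 0 TPM, and Cyp2s1 at 114, 284 and 149 TPM and 1.22, 19.4 and 2.78 TPM. Cyp1b1, an extrahepatic P450, was lower in Type D, at 9.09, 4.4 and 11.1 TPM and 68, 136 and 73.9 TPM (-3.36 ± 0.39 log2). Cyp2c genes are close copies of each other, so their single values are uncertain. Among 74 ribosomal protein genes tested of 75 none was called by limma, and 10 had an unadjusted p under 0.05.

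Hox genes, which record position along the body axis, were nearly silent in Type D. The summed level of the 39 listed was 0.2 to 1.1 TPM in Type D and 54.4 to 161 TPM in Type V. Hoxa3 was listed at 0 in all Type D lines and at 26, 24.5 and 7.55 TPM in Type V (adjusted p = 0.00575), and Hoxa5, a regulator of lung development, likewise at 0 and at 4.83, 7.19 and 3.44 TPM. The 5 that passed were all called lower in Type D, and all 5 passed through their Type V levels. Members of the HoxB cluster were uneven within Type V and did not pass: Hoxb9, named for its level, was at 0.589, 11.4 and 70.8 TPM.

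Which Type V line lay nearest to Type D depended on the genes. Of the 431 genes called higher in Type D, 4716-10 was the highest Type V line for 253, 4716-14 for 103 and 4711-11 for 75. Elf3, an epithelial Ets factor chosen here for its spread, was at 55.6, 79.3 and 51.5 TPM in Type D and 0.0718, 67.1 and 5.15 TPM in Type V, and Cdx2, the intestinal homeobox factor, at 122, 126 and 83.7 TPM and 0.148, 39.4 and 5.86 TPM, neither called. Lists that were lower in Type D had no single order. Their mean level over all listed members, in log2(TPM + 1), is given for 4711-11, 4716-10 and 4716-14. It was 2.56, 2.73 and 2.80 for collagens, 4.83, 5.58 and 5.77 for matrix glycoproteins and 2.70, 3.20 and 3.13 for interferon-stimulated genes. In these 4711-11 was nearest to Type D. In others 4716-10 was nearest. Mesenchymal surface and cytoskeletal genes had 4.65, 4.21 and 5.04, and TGF-beta and BMP ligands had 2.99, 2.80 and 3.11. For the 457 genes called lower the highest Type D line was 4716-11 for 191, 4711-18 for 154 and 4711-1 for 112. These counts describe genes chosen on the same 6 libraries. Leaving 4716-10 out raised the calls to 501 and 483. Within prefixes, Krt19 differed by 5.28 log2 between the 4711 lines and by 3.08 log2 between the 4716 lines, Hnf4a by 7.51 and 4.91 log2, Snai2 by -4.04 and -2.41 log2 and Col1a2 by -4.30 and -6.84 log2. With the prefix as a term 322 genes were called higher and 282 lower.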

How the data were processed

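Libraries of stranded mRNA were read single-end, and the authors deposited 1 table of TPM values, used as deposited. The study's methods name kallisto or HISAT2 and write mm10 and GRCm39, and the submitters' processing notes name HISAT2. Which of them lies behind the table is not given in the sources used here. TPM sums to the same total in each library, so depth is unknown and no interval from counts can be given.

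Groups came from the labels. The main test was limma 3.58.1 in R 4.3.3 (lmFit, eBayes with trend, two-sided) on log2(TPM + 1) of the 6 Control libraries, since the 4 libraries of a line are not independent (line correlation 0.736). p-values were adjusted over the 12298 tested genes. The members and the gene lists were chosen with earlier results of these data known, so no list was tested as a set, and lists are described by counts and medians. Named genes are the 12 largest differences each way among called genes, up to 6 called members of each list, and anchor genes. In simulated data 50% of genes changed by 1.5 log2 and 87.7% of those changed by 3 log2 were called (200 of 12298 genes, 3 draws). Changes were planted only in genes with a mean above 2 log2, so recovery at lower levels was not measured. Alternatives were a pseudocount of 0.1, 3 other filters, 2 normalizations, fits to other libraries, the line name prefix as a term, no trend, and each line left out. Gene order was taken from RefSeq on GRCm38.p6 (12250 genes placed). Figures were drawn with matplotlib 3.10.9. Results for some listed genes are not reported here.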

Additional observations from a re-analysis of the deposited data

How the results depend on the processing

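Of the 152 named genes that were called, 72 kept their call in every alternative in which they were tested, 95 in every alternative that left no line out, and none changed sign. Leaving 1 line out gave 146 to 501 genes called higher and 144 to 483 called lower. Without the low-value filter 18513 genes were tested, and there were 248 higher and 265 lower. With all 24 libraries and the line as a random block there were 763 and 824, and without that block 624 and 622. With the line name prefix as a term there were 282 called lower. Of the 888 calls, 283 were shared by the fit without 4711-1 (97.6% of its own calls) and 560 by the fit with the prefix. Among genes not called the sign of the difference turned for Vim under median-ratio scaling (0.019 log2), for Mycn with a pseudocount of 0.1 (0.30 log2) and with the prefix (0.17 log2) and for Ppif with the prefix (-0.0051 log2). With a line left out it ran from -0.10 to 0.88 log2 for Epcam, -0.31 to 0.10 for Vim, -1.63 to 0.12 for Snai1, -0.42 to 2.68 for Nkx2-1, -1.32 to 0.79 for Mycn, -0.39 to 0.30 for Ppif and -0.28 to 0.032 for Mki67. List medians changed sign in 8 of 45 lists, among them cell cycle genes (0.076 log2 after median-ratio scaling). No paired analysis was possible because each line gives 1 Control library. The causes of these changes were not tested, and TPM holds no record of depth.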

Other observations

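Some genes were high in a single line or pair of lines and were either not called between the types or did not pass the low-value filter. They were chosen after their values were seen. In Type D line 4711-18 Fabp1, the liver fatty acid-binding protein, was at 223 TPM and listed at 0 in the other 5 lines. The same line held Sftpb, a lung surfactant protein, at 88.6 TPM and Gkn2, a stomach mucosal protein, at 28.1 TPM, each below 2 TPM in the others. Cldn18, a claudin of stomach and lung, was at 138 and 105 TPM in 4711-1 and 4716-11 and at 0.831 TPM in 4711-18, and Pdx1, a pancreatic and duodenal factor, at 129.9, 72.0 and 0.379 TPM in the same order. The Type D lines therefore differed among themselves in gut, stomach and lung genes.

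Within Type V, Thbs2, a thrombospondin, was at 125.9 TPM in 4716-14 and at 1.32 TPM or less in the other 5 lines. Efemp1, a fibulin, was at 605 and 364 TPM in 4716-10 and 4716-14 and at 0.157 TPM in 4711-11. Bgn, the matrix proteoglycan biglycan, ran against most of its list, at 1303, 1292 and 1738 TPM in Type D and 8.69, 702 and 55.4 TPM in Type V. Ehf, an epithelial Ets factor, was at 27.3, 31.1 and 28.7 TPM in Type D and at 24.3 TPM in Type V line 4716-10, against 0.254 TPM in 4711-11 and 2.68 TPM in 4716-14.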
